A study of Mus musculus with 8 samples.

Results

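Gene desert regions were stretches of open chromatin far from any protein-coding gene in cDC1, the type 1 conventional dendritic cells, here sorted from the spleens of mice. They were defined by position alone, as regions of a shared ATAC-seq count table on chromosomes 1 to 19 that lay over 50 kb from the span of every protein-coding gene of the RefSeq models on GRCm38. The rule took 5841 of 59906 regions (9.75%). ATAC-seq uses a transposase that inserts sequencing adapters into accessible DNA, so a count over a region measures how often that DNA was open. The 8 libraries comprised 4 from WT mice and 4, labelled OPA1KO, from mice with CD11c-Cre and loxP-flanked Opa1. The OPA1 protein joins the inner membranes of fusing mitochondria and keeps cristae in shape, and CD11c-Cre is driven by the promoter of the integrin gene Itgax, which dendritic cells express and which some macrophages and other leukocytes also use. The labels tie no library to an animal and do not say whether the WT mice carried Cre, the age or the sex, so the p-values below rest on the spread among 8 libraries, and part of that spread may be technical. The question the comparison addresses is whether loss of OPA1 altered open chromatin in cDC1, here in the DNA outside gene neighbourhoods.

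A gene desert is a long interval without protein-coding genes. Many deserts flank genes for transcription factors and hold distal enhancers, short stretches of DNA that bind transcription factors and act on a promoter far away through looping of the chromatin. In myeloid cells such elements are commonly bound by PU.1, the factor that opens chromatin in these lineages, with C/EBP, RUNX, AP-1 and IRF factors. Long non-coding RNA genes and microRNA genes also start in deserts, since the definition considers coding genes only.

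Total counts ranged from 4660826 to 7590578 per library. The region of highest level at a gene end was present for 13 of 14 cDC1 marker genes, Itgae being the exception, with levels from 7.01 CPM (counts per 1000000 of the scaled library size) at Cd8a to 81.8 CPM at Id2. The summed level over these 13 regions was 359 to 381 CPM in WT and 342 to 379 CPM in OPA1KO libraries. A single region touched the Opa1 gene, at a gene end, which here means within 1 kb of either end, the start included. It had 37.8 to 47.0 CPM in WT and 34.6 to 43.0 CPM in OPA1KO libraries. It cannot check the labels, because the labels do not say which exons are deleted. WT replicate 2 stood apart from the other WT libraries in gene deserts, as the values by level of region show, and counts of called regions are given with and without it.

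The desert regions fell into 1205 deserts, each the interval between a pair of neighbouring coding genes. Of these, 371 held a single region, and 151 held at least 10 regions each, which made up 2723 regions (46.6%). The median distance from a region to the nearest coding gene was 107 kb (interquartile range 70.9 to 183 kb). The share of a chromosome's regions that lay in deserts ran from 5.38% on chromosome 11 to 16.7% on chromosome 13. At the threshold, the 3 regions just inside lay 50.004 kb from Tmco5, 50.016 kb from Kctd1 and 50.031 kb from Pde4b, with mean levels of 3.72, 17.4 and 6.15 CPM. The 3 just outside lay 49.998 kb from Glrp1, 49.996 kb from Cxcr4 and 49.996 kb from Rgs1, with 2.42, 3.92 and 3.98 CPM. The farthest region, chr5:59996646-59997057, lay 1812 kb from G6pd2 and had 5.84 CPM.

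Some desert regions covered the start of a non-coding RNA gene, and their median level was above that of the other desert regions. Of the 5841 regions, 1751 (30.0%) lay inside a non-coding model, and 1610 of those lay inside a long non-coding RNA. At least 150 bases of a start window (250 bases before to 50 after an annotated start) were covered by 127 regions (2.17%). The windows below were chosen to show the 2 strongest starts, which are rich in CG dinucleotides, beside 3 starts that hold PU.1 and AP-1 letters. They are RefSeq sequences on GRCm38.p6, read 5′ to 3′ on the strand of the gene, with the motif matches in capitals.

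D130051D11Rik, chr15:85634346-85634645, plus strand: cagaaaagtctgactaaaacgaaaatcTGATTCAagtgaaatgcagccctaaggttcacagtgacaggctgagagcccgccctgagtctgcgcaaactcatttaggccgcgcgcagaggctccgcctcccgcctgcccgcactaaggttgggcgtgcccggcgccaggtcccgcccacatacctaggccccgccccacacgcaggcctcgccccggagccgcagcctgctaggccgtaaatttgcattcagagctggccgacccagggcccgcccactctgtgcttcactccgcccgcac
Gm26901, chr1:7398047-7398346, minus strand: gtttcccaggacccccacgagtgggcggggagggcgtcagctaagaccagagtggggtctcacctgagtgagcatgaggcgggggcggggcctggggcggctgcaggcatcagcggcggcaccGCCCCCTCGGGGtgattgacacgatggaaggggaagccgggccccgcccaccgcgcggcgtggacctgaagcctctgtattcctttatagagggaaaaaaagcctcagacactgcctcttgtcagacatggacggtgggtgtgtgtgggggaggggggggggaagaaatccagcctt
Mirt1, chr19:53464747-53465046, minus strand: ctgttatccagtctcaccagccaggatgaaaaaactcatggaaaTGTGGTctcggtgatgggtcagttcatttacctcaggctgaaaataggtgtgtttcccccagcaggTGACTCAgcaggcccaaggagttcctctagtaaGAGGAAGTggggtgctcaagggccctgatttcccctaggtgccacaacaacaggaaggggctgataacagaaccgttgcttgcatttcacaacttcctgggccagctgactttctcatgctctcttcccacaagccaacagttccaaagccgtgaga
Gm32287, chr2:167777365-167777664, minus strand: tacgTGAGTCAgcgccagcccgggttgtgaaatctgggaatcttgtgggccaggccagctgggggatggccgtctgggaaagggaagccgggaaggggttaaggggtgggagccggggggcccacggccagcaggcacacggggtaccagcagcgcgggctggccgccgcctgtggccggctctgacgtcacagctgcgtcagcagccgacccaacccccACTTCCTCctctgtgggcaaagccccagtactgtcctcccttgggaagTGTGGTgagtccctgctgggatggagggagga
Morrbid, chr2:128429302-128429601, minus strand: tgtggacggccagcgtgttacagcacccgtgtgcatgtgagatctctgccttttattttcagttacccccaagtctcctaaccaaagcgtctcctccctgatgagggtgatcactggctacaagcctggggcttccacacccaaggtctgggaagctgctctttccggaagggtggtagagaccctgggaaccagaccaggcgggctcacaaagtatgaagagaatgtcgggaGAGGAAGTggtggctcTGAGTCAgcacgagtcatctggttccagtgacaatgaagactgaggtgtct

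The windows of D130051D11Rik and Gm26901 held 23 and 18 CG dinucleotides, and their GC contents were 63.7% and 65.7%. Those of Mirt1 and Morrbid held 3 and 8, and that of Gm32287 held 16. The region over the D130051D11Rik start, chr15:85634319-85635059, 52.5 kb from the Wnt ligand gene Wnt7b, was the highest of all desert regions, with 180, 206, 188 and 188 CPM in WT replicates 1 to 4 and 189, 196, 188 and 176 CPM in OPA1KO replicates 1 to 4. The region over the Gm26901 start, chr1:7397351-7398480, lay 224 kb from Pcmtd1 and had 202, 182, 202 and 193 CPM in the WT libraries and 161, 191, 180 and 186 CPM in the OPA1KO libraries. Levels at both starts varied little between libraries, and the groups overlapped. The windows of Mirt1, Gm32287 and Morrbid each held an AP-1 and a PU.1 match. Gm32287 starts 86.9 kb from Cebpb, the gene of a myeloid transcription factor, and Morrbid is a long non-coding RNA known to restrain the neighbouring pro-apoptotic gene Bcl2l11 in short-lived myeloid cells. At the Mirt1 start, 63.8 kb from the MAP kinase phosphatase gene Dusp5, the region had 91.4, 152, 86.1 and 123 CPM in the WT libraries and 119, 129, 154 and 87.9 CPM in the OPA1KO libraries. At the Gm32287 start the values were 69.0, 117, 87.5 and 95.8 CPM in the WT libraries and 92.7, 114, 113 and 62.1 CPM in the OPA1KO libraries. At the Morrbid start they were 22.7, 40.8, 21.7 and 32.3 CPM in the WT libraries and 31.6, 34.8, 37.5 and 21.2 CPM in the OPA1KO libraries. At these 3 starts, as at the D130051D11Rik start, WT replicate 2 was the highest WT value and OPA1KO replicate 4 the lowest OPA1KO value. The groups overlapped at each. The pattern is not particular to these starts. Among the 92 desert regions of at least 50 CPM, WT replicate 2 was highest in its group at 76.1%. OPA1KO replicate 4 was lowest in its group at 64.1% of them.

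The 127 regions with a start window were wider than the other desert regions (median 393 against 298 bp). In every library they also had a higher median level, which was not scaled by width. Single regions overlapped, with interquartile ranges of 4.87 to 18.3 CPM with a start window and 3.32 to 8.94 CPM without. The sign-flip test is over libraries scored on the same regions, so its p does not measure the spread among regions. The difference of the medians was 3.84 ± 0.565 CPM (SD over 8 libraries; 8 of 8 higher; two-sided exact sign-flip permutation test, p = 0.00781, the smallest it can give), and it did not differ by genotype beyond the spread (OPA1KO minus WT -0.781 CPM, exact permutation p = 0.0857). Letters were searched on both strands for AP-1 (TGANTCA), PU.1 (GAGGAAGT), an IRF repeat (GAAA, any 2 bases, GAAA), RUNX (TGTGGT) and a CTCF core (CC, any 3 bases, AGG, any base, GGC), each by itself, so that matches may overlap. PU.1 letters were present in 21 of the 127 windows under a desert region (16.5%), in 3.38% of the 3075 desert windows without a region and in 3.25% of all 31396 windows. RUNX letters were present in 29.1%, 19.9% and 16.7% of the same 3 sets, AP-1 letters in 14.2%, 10.8% and 7.84%, CTCF letters in 4.72%, 0.715% and 3.48%, and the IRF repeat in 3.94%, 4.33% and 3.46%. At least 15 CG dinucleotides were present in 13.4% of the windows under a desert region, against 1.20% of desert windows without one and 35.2% of all windows. The median GC contents were 50.7%, 45.3% and 53.0%. A match to such letters describes the window and shows no binding.

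A further strong desert region lay beside the miR-17-92 cluster, microRNAs that promote growth and survival of blood cells. The hairpins of Mir17, Mir18, Mir19a, Mir20a, Mir19b-1 and Mir92-1 began 2.56 to 3.32 kb beyond chr14:115040543-115041109, a region with 68.9 ± 7.91 CPM in WT and 62.0 ± 9.07 CPM in OPA1KO libraries (SD, n = 4 each). The main mature forms fall into families by seed, bases 2 to 8, shown in capitals: miR-17-5p shares its seed with miR-20a-5p and miR-19a-3p shares its seed with miR-19b-3p.

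mmu-miR-17-5p: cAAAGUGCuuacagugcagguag
mmu-miR-20a-5p: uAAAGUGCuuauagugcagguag
mmu-miR-18a-5p: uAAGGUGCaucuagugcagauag
mmu-miR-19a-3p: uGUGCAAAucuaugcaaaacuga
mmu-miR-19b-3p: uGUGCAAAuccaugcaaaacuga
mmu-miR-92a-3p: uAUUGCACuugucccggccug

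In all, 20 microRNA hairpins lay within 5 kb of 12 desert regions. The hairpin of Mir9-2 lay inside one of them, chr13:83738614-83738933 in the Mef2c desert, at 6.84 ± 0.776 CPM in WT and 6.66 ± 1.96 CPM in OPA1KO libraries.

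Desert regions were as narrow as other regions away from gene ends and weaker than all of them. Their median width was 299 bp (interquartile range 243 to 388 bp), against 297 bp for regions between genes but within 50 kb of one, 302 bp inside genes and 490 bp at gene ends, which are regions within 1 kb of either end of a coding gene. Only 20 desert regions (0.342%) were at least 1 kb wide, against 5.60% of regions at gene ends. The widest, chr6:31125366-31126897 inside the long non-coding RNA gene Lncpint and 166 kb from Klf14, spanned 1531 bp at 71.5 CPM. Among the 6 widest, chr4:72411298-72412705, 210 kb from the co-repressor gene Tle1, had only 15.9 CPM over 1407 bp. The median of the mean levels was 5.01 CPM in deserts, 5.70 CPM near genes, 5.68 CPM inside genes and 24.0 CPM at gene ends. At least 10 CPM was reached by 1282 desert regions (21.9%), and by 25.9%, 26.9% and 70.8% of the other classes. Per kb of width the medians were 16.5, 18.3, 18.1 and 44.7 CPM.

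**Figure D1:**
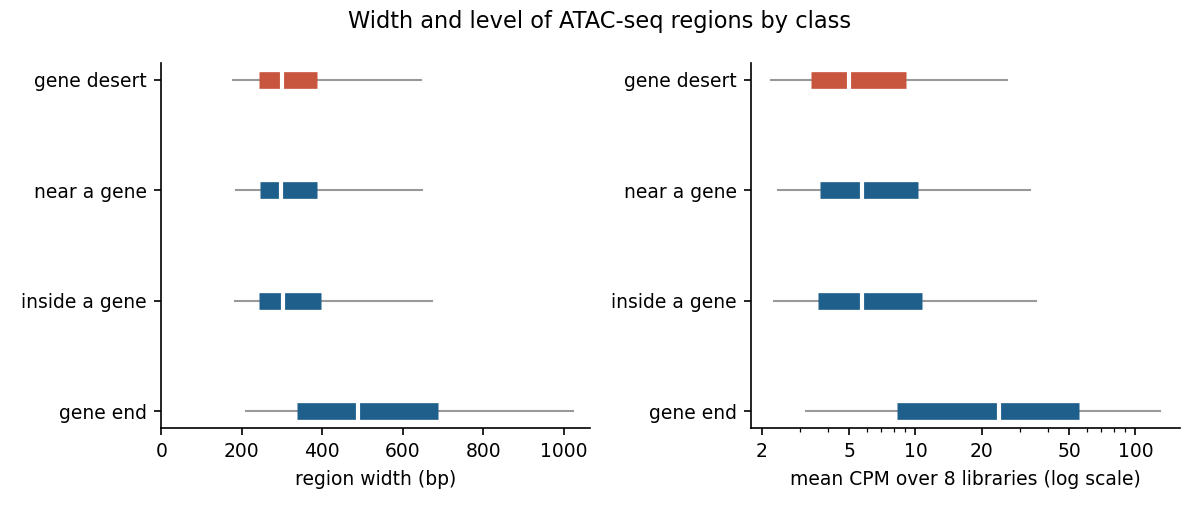
Width in bp (left) and mean level in CPM over 8 libraries on a log axis (right) for 4 classes of region. Thick bars span the middle 50% of regions, white marks are medians and thin lines run from the 5th to the 95th percentile. Gene deserts have a median of 299 bp and 5.01 CPM, and gene ends one of 490 bp and 24.0 CPM.

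The lower level held in each library. The sign-flip tests here are over libraries scored on the same regions, so their p-values do not measure the spread among regions. The median of desert regions minus that of regions near genes was -0.653 ± 0.200 CPM (SD over 8 libraries). It was -0.662 ± 0.163 CPM against regions inside genes and -18.8 ± 0.604 CPM against gene ends, and each difference was below 0 in 8 of 8 libraries (two-sided exact sign-flip permutation tests, p = 0.00781, adjusted over the 3 comparisons p = 0.00781). None of the 3 gaps differed between genotypes beyond the spread (exact permutation p = 0.429, 0.686 and 0.143; adjusted 0.643, 0.686 and 0.429). Within deserts, the median level was 5.28 CPM at 50 to 100 kb from a gene, 5.25 CPM at 100 to 200 kb, 4.44 CPM at 200 to 500 kb and 4.13 CPM beyond 500 kb. The share of regions with at least 10 CPM fell over the same steps from 23.8% to 12.2%, as a description of 2710, 1862, 1040 and 229 regions.

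The share of counts in desert regions differed between genotypes by less than the spread among libraries. WT replicates 1 to 4 had shares of 5.06%, 4.81%, 5.08% and 4.94%, and OPA1KO replicates 1 to 4 had 5.09%, 4.99%, 4.91% and 5.15%. WT replicate 2 was lowest and OPA1KO replicate 4 highest, and the groups overlapped. The means were 4.97 ± 0.126% and 5.03 ± 0.106% (SD, n = 4 each; exact permutation p = 0.486). The median desert level was 5.32, 4.67, 5.27 and 5.02 CPM in the WT libraries and 5.12, 5.08, 4.83 and 5.41 CPM in the OPA1KO libraries (exact permutation p = 0.886).

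**Figure D2:**
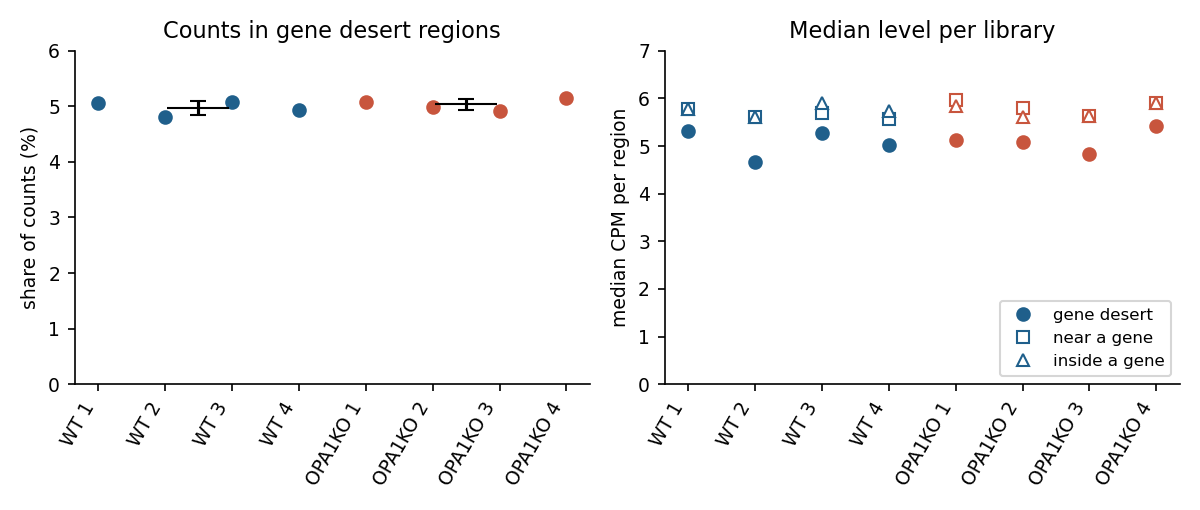
Share of each library's counts in gene desert regions in percent (left; black bars are the mean and SD of 4 libraries) and median CPM per region by class (right), with WT in blue and OPA1KO in red. The desert medians, filled circles, lie below the open symbols for regions near and inside genes in all 8 libraries.

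In summed level, libraries of 1 genotype differed most at the strongest desert regions, and that difference ran in opposite directions at strong and weak regions. The 92 desert regions (1.58%) of at least 50 CPM summed to 6027, 8017, 6451 and 7205 CPM in WT replicates 1 to 4 and to 6974, 7004, 7244 and 6118 CPM in OPA1KO replicates 1 to 4. WT replicate 2 was the highest and WT replicate 1 the lowest of all, and the groups overlapped (exact permutation p = 0.83). In single regions, WT replicate 2 was the highest WT library at 70 of the 92 (76.1%), and its level was a median of 1.41 times that of WT replicate 1. The sum in WT replicate 2 was 1.33 times that in WT replicate 1 over these desert regions, 1.37 times over regions of at least 50 CPM near genes, 1.23 times over those inside genes and 1.10 times over those at gene ends. The difference was thus as large near genes as in deserts, and WT replicate 2 was also the highest WT library at 81.1% of the strong regions near genes. The 2383 desert regions of 3 to 6 CPM summed to 10704, 9325, 10456 and 9904 CPM in the WT libraries and 10361, 9915, 9747 and 10670 CPM in the OPA1KO libraries. There WT replicate 2 was the lowest library and WT replicate 1 the highest. The TMM scaling factors, which divide the counts, were lowest in WT replicate 2 (0.947) and highest in OPA1KO replicate 4 (1.03) and WT replicate 1 (1.02), and their part in this pattern was not tested.

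**Figure D3:**
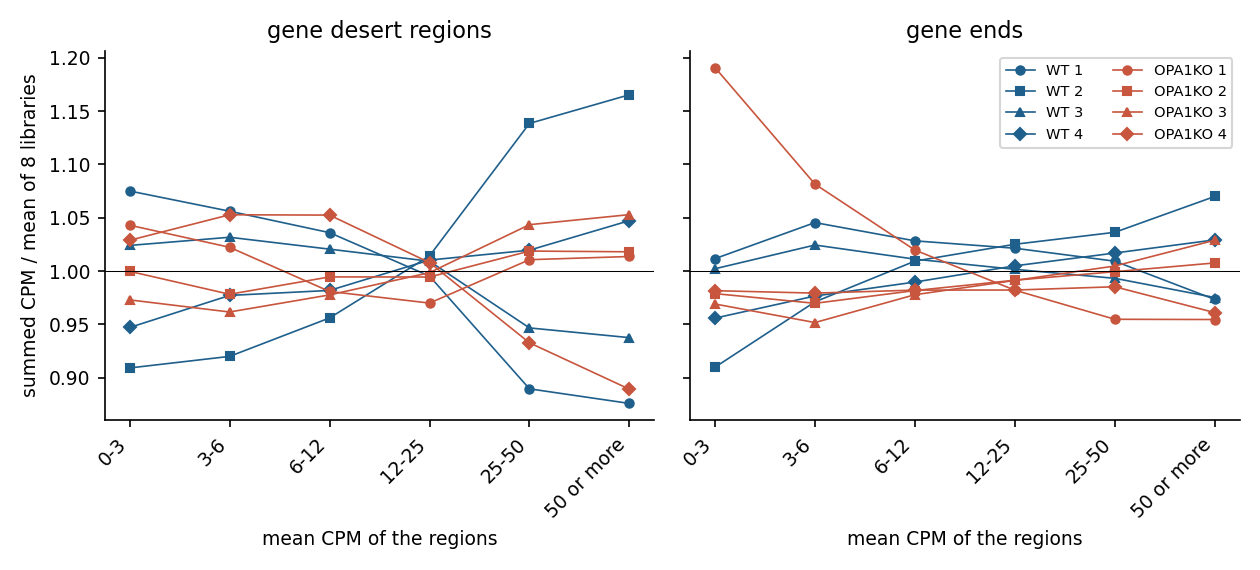
Summed CPM of each library relative to the mean of the 8 libraries, by the mean CPM of the regions, for gene desert regions (left) and gene ends (right), with WT in blue and OPA1KO in red. In deserts WT replicate 2 is lowest among regions of 3 to 6 CPM and highest among regions of 50 CPM or more, where WT replicate 1 is lowest.

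Several of the 12 highest desert regions, near genes of signalling and myeloid regulation, showed this spread. At chr2:167774968-167775743, 84.5 kb from Cebpb, the level was 116, 208, 136 and 177 CPM in the WT libraries and 178, 164, 199 and 122 CPM in the OPA1KO libraries. At chr1:128712518-128713398, 120 kb from the chemokine receptor gene Cxcr4, it was 111, 205, 130 and 151 CPM in the WT libraries and 153, 149, 172 and 121 CPM in the OPA1KO libraries. At chr8:34622495-34623105, 185 kb from the MAP kinase phosphatase gene Dusp4, it was 87.6, 135, 93.2 and 114 CPM in the WT libraries and 118, 98.4, 123 and 87.6 CPM in the OPA1KO libraries. In all 3 the lowest WT library was replicate 1, the highest was replicate 2, and the OPA1KO values lay within or near the WT range. The same held at chr15:59728052-59728680, 71.0 kb from Trib1, a pseudokinase gene whose product promotes the breakdown of C/EBP alpha, with 95.2, 159, 112 and 133 CPM in the WT libraries and 136, 127, 136 and 105 CPM in the OPA1KO libraries. Other desert regions of similar strength were nearly constant. At chr15:68362586-68363720, 104 kb from Zfat, the means were 157 ± 10.2 and 155 ± 10.9 CPM (SD, n = 4 each). At chr16:84583293-84584290, 134 kb from the mitochondrial ribosomal protein gene Mrpl39, they were 83.4 ± 3.01 and 82.8 ± 1.43 CPM, the smallest SD of log2 CPM within groups (0.0402) among desert regions at or above the median level. The largest was that of chr12:25396037-25396403, 300 kb from Id2, at 5.93, 1.56, 14.3 and 11.7 CPM in the WT libraries and 2.56, 3.26, 1.07 and 1.64 CPM in the OPA1KO libraries. That region had a log2 fold change of -1.96 ± 0.59 (SE) but did not pass (edgeR adjusted p = 0.558).

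Over all levels, the spread of desert regions between libraries was close to that of other classes when weak and larger than that of gene ends when strong. The median SD of log2 CPM within groups was 0.339 in deserts and 0.333 at gene ends among regions of 3 to 6 CPM. It was 0.225 and 0.151 among regions of 25 to 50 CPM, and 0.201 and 0.118 at 50 CPM or more, where regions near genes had 0.200. Across desert regions, log2 CPM correlated between libraries of 1 genotype at 0.869 to 0.916 over 12 pairs, and across gene ends at 0.972 to 0.984. Those coefficients are across regions, which share libraries and depth and are not replicates.

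OPA1KO was compared with WT over single regions, whole deserts and lists of flanking genes. Of the 5841 desert regions, 5739 had enough counts to be tested and 102 did not. The quasi-likelihood test of edgeR, with Benjamini-Hochberg adjustment over the 59247 regions tested in the whole table, called 3 desert regions at 0.05 (0.0523% of those tested), where 0.0203% of all tested regions were called. All 3 were lower in OPA1KO and 0 were higher, against 0.0152% and 0.00506% of all tested regions. At an unadjusted p under 0.05 there were 216 higher and 294 lower desert regions, together 8.89% of those tested, against 6.38% of all tested regions (2.92% higher and 3.46% lower). The split was 244 higher and 259 lower with total counts in place of TMM scaling. It was 233 and 247 without WT replicate 1, and 218 and 215 without WT replicate 3. More lower than higher regions remained in other fits: 279 higher and 385 lower without WT replicate 2, and 228 and 323 without OPA1KO replicate 4. With DESeq2 there were 175 higher and 258 lower. A fold change of 2 or more was estimated lower at 78 (1.36%) and higher at 36 (0.627%) desert regions, against 0.488% and 0.439% of all tested regions. Those 2-fold counts became 79 lower and 71 higher without WT replicate 1, and 101 and 70 without WT replicate 2. They were 62 and 60 without WT replicate 3, and 72 and 52 without WT replicate 4. Without OPA1KO replicates 1 to 4 they were 110 and 43, 88 and 50, 80 and 49, and 86 and 40. DESeq2 gave 80 lower and 36 higher, and limma-voom 87 and 42. The groups did not overlap at 287 desert regions (5.0%), 150 lower and 137 higher, against 3.95% of all tested regions (2.11% lower and 1.84% higher). The median log2 fold change of desert regions was 0.02, with 2991 above 0 and 2748 below, and that of all tested regions was -0.0039.

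**Figure D4:**
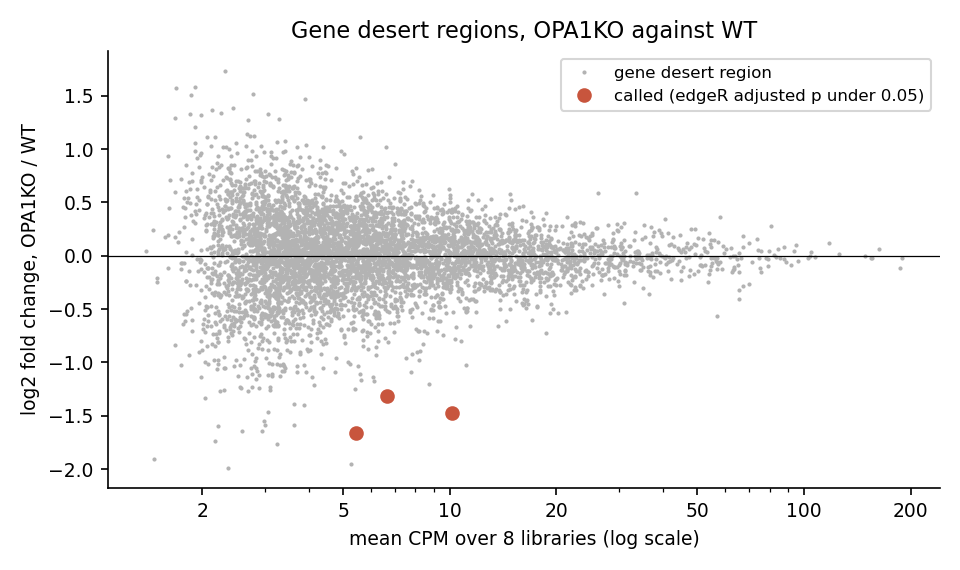
log2 fold change of OPA1KO against WT for each of the 5739 tested gene desert regions (grey points) against the mean CPM over 8 libraries on a log axis. The 3 regions called by edgeR (red) lie between 5.43 and 10.1 CPM, all below 0.

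The called regions were of modest level and lay in 3 different deserts. The region chr12:52396338-52396720, 85.4 kb from Nubpl, a gene for an assembly factor of mitochondrial complex I, had 8.51, 8.41, 7.59 and 8.43 CPM in the WT libraries and 2.42, 2.90, 1.88 and 3.28 CPM in the OPA1KO libraries. The 4 WT values lay close together and well above all 4 OPA1KO values (log2 fold change -1.66 ± 0.27 SE, edgeR adjusted p = 0.0106). The region chr14:15066341-15066885, 54.3 kb from the kinase gene Nek10, had 16.0, 6.86, 18.8 and 18.1 CPM in the WT libraries and 4.27, 5.08, 5.09 and 6.89 CPM in the OPA1KO libraries. WT replicate 2 fell among the OPA1KO values, so the groups overlapped (-1.48 ± 0.26, edgeR adjusted p = 0.0290). The region chr15:17597006-17597627, 740 kb from Cdh9, the gene of a neuronal cadherin, had 10.6, 6.54, 11.4 and 9.32 CPM in the WT libraries and 3.13, 4.35, 3.75 and 3.94 CPM in the OPA1KO libraries. Its groups did not overlap, with WT replicate 2 the lowest WT value (-1.32 ± 0.25, edgeR adjusted p = 0.0419). The raw counts at the Cdh9 region were 42 to 70 in WT and 22 to 28 in OPA1KO libraries.

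The number of these calls changed with the library left out. A fit with 1 library fewer also has less power, and the part of this was not tested. Left out 1 at a time, WT replicates 1 to 4 gave 1, 15, 0 and 0 called desert regions, and OPA1KO replicates 1 to 4 gave 0, 1, 0 and 6, in place of 3. Of the 15 without WT replicate 2, 14 were lower and 1 was higher. Over the whole table the calls moved in the same way, from 12 to 8, 68, 1 and 1 without WT replicates 1 to 4 and to 1, 4, 1 and 22 without OPA1KO replicates 1 to 4. The Nubpl region passed in 4 of these 8 fits (edgeR adjusted p from 0.00439 to 0.115). The Nek10 region passed in 2 (edgeR adjusted p from 1.75e-05 to 0.279) and the Cdh9 region in 2 (0.00350 to 0.389). Their log2 fold changes in these fits ran from -1.79 to -1.53, from -1.72 to -1.35 and from -1.46 to -1.22. DESeq2 called 8 desert regions of 43 in the whole table and limma-voom 1 of 4, all of these desert regions lower. Of the monocyte and macrophage marker genes with a region at a gene end, 12 of 16 had negative fold changes, with a median log2 fold change of -0.18 and 0 called, where 7712 of all 12907 tested gene-end regions had negative fold changes. Their summed level overlapped between genotypes, at 391 to 471 CPM in WT and 372 to 437 CPM in OPA1KO libraries. The complement gene C1qb had a log2 fold change of -0.87 ± 0.26 and did not pass (edgeR adjusted p = 0.42). Cd163, Marco, Ccr2 and Timd4 had no region at a gene end. Fold changes were negative at 6 of 6 B cell markers with a region (median -0.05), each smaller in size than its SE. They were negative at 7 of 8 cDC2 markers (median -0.13) and at 7 of 13 cDC1 markers (median -0.0049). The exception among cDC2 markers was the integrin gene Itgam, with means of 14.4 CPM in WT and 23.5 CPM in OPA1KO libraries. Its log2 fold change of 0.71 ± 0.16 had the smallest adjusted p of all markers and did not pass (edgeR adjusted p = 0.155). For plasmacytoid dendritic cells, T cells, NK cells, neutrophils and red cells the negative fold changes were 1 of 3, 2 of 4, 1 of 3, 2 of 5 and 1 of 4. None of these markers was called. The part of cells other than cDC1 in the result was not tested. In bulk libraries fewer cells of a type and less open DNA per cell cannot be told apart.

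Among regions that did not pass, the next smallest p in the lower direction was that of chr18:30507080-30507404, 159 kb from Pik3c3, the class III phosphoinositide 3-kinase of autophagy. It had 9.73, 5.30, 10.6 and 6.99 CPM in the WT libraries and 4.13, 2.72, 1.07 and 2.62 CPM in the OPA1KO libraries, without overlap (-1.62 ± 0.32, edgeR adjusted p = 0.0607). In the higher direction the smallest p values were those of 4 regions: chr2:135525832-135526159 and chr2:135562534-135562957 near the phospholipase C gene Plcb1, chr12:32501100-32501435 near Ccdc71l and chr7:47691186-47691527 near the itch receptor gene Mrgpra3. Their log2 fold changes were 1.47 ± 0.35, 0.58 ± 0.14, 1.11 ± 0.29 and 1.52 ± 0.39, with edgeR adjusted p of 0.170, 0.199, 0.280 and 0.284. The stronger Plcb1 region had 17.0, 23.8, 20.3 and 22.6 CPM in the WT libraries and 33.0, 27.9, 30.4 and 34.1 CPM in the OPA1KO libraries, without overlap.

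Neighbouring regions of 1 desert were next summed, and 9 of 1195 tested deserts were called (0.753%), 7 lower (0.586%) and 2 higher (0.167%) in OPA1KO. The sums reuse the counts of the single regions and are not separate evidence. The Cdh9 to Cdh10 and Nek10 to Lrrc3b deserts hold the called regions near Cdh9 and Nek10. The 2 higher deserts hold the Plcb1 and Mrgpra3 regions given above. The unadjusted p was under 0.05 in 138 of the 1195 deserts (11.5%), 94 lower and 44 higher. No sums over other classes of region were fitted, so these shares have no background to stand beside. The split at this unadjusted p was not counted in the other fits. The smallest p was that of the desert between the cadherin genes Cdh9 and Cdh10, 1962 kb long with 2 regions, which summed to 15.5, 8.73, 17.7 and 14 CPM in the WT libraries and 5.12, 6.89, 4.16 and 5.58 CPM in the OPA1KO libraries. Every OPA1KO value lay below every WT value (log2 fold change -1.37 ± 0.23 SE, edgeR adjusted p = 0.00643). The neighbouring desert between Cdh6 and Cdh9, 3552 kb long and also with 2 regions, held 14.3, 14.5, 19.2 and 16.7 CPM in the WT libraries and 8.25, 10.3, 7.24 and 9.35 CPM in the OPA1KO libraries. Its groups did not overlap either (-0.88 ± 0.18, edgeR adjusted p = 0.0232). Cdh6, Cdh9 and Cdh10 encode classical type II cadherins, adhesion molecules of neural and epithelial tissue. Another desert of chromosome 15, between Basp1 and the unconventional myosin gene Myo10, fell from 18.5 ± 4.84 to 10.3 ± 1.10 CPM (SD, n = 4 each; -0.84 ± 0.19, edgeR adjusted p = 0.0350).

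The other 4 lower deserts lay on 4 chromosomes. The desert between Nek10 and Lrrc3b had 28.3, 14.3, 30.6 and 26.9 CPM in the WT libraries and 11, 10.7, 11 and 16.9 CPM in the OPA1KO libraries, and its groups overlapped at WT replicate 2 and OPA1KO replicate 4 (-1.01 ± 0.21, edgeR adjusted p = 0.0232). The desert between 1700017N19Rik and the glycosyltransferase gene Mgat4c fell from 33.2 ± 7.48 to 19.9 ± 3.33 CPM over 6 regions, of which 5 had negative fold changes and 2 an unadjusted p under 0.05 (-0.73 ± 0.17, edgeR adjusted p = 0.0350). The deserts between Epha4 and Pax3 and between Ajap1 and A430005L14Rik each held a single region, of 3.64 and 2.94 CPM. Their log2 fold changes were -1.59 ± 0.36 and -1.65 ± 0.39 (edgeR adjusted p = 0.0350 and 0.0422). The same 2 regions did not pass when tested as single regions (edgeR adjusted p = 0.123 and 0.180). Their unadjusted edgeR p were 8.30e-05 and 1.90e-04 as single regions, and 1.91e-04 and 2.83e-04 as deserts. The deserts were adjusted over fewer tests, so these 2 calls rest on the adjustment and not on summing. The raw counts in OPA1KO libraries were 5 to 16 and 6 to 16.

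The desert between the phospholipase C genes Plcb1 and Plcb4 was higher in OPA1KO. Its 2 regions summed to 18.5, 25.1, 23.2 and 25.3 CPM in the WT libraries and 36.7, 35.0, 38.2 and 38.4 CPM in the OPA1KO libraries. The groups were far apart for their spread (log2 fold change 0.69 ± 0.13 SE, edgeR adjusted p = 0.0174). The desert between Mrgpra3 and Mrgpra4, receptor genes of a family expressed in sensory neurons, held 4.10, 5.92, 4.64 and 4.12 CPM in the WT libraries and 11.5, 5.62, 11.1 and 10.7 CPM in the OPA1KO libraries. OPA1KO replicate 2 lay within the WT values there (1.06 ± 0.25, edgeR adjusted p = 0.0442).

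**Figure D5:**
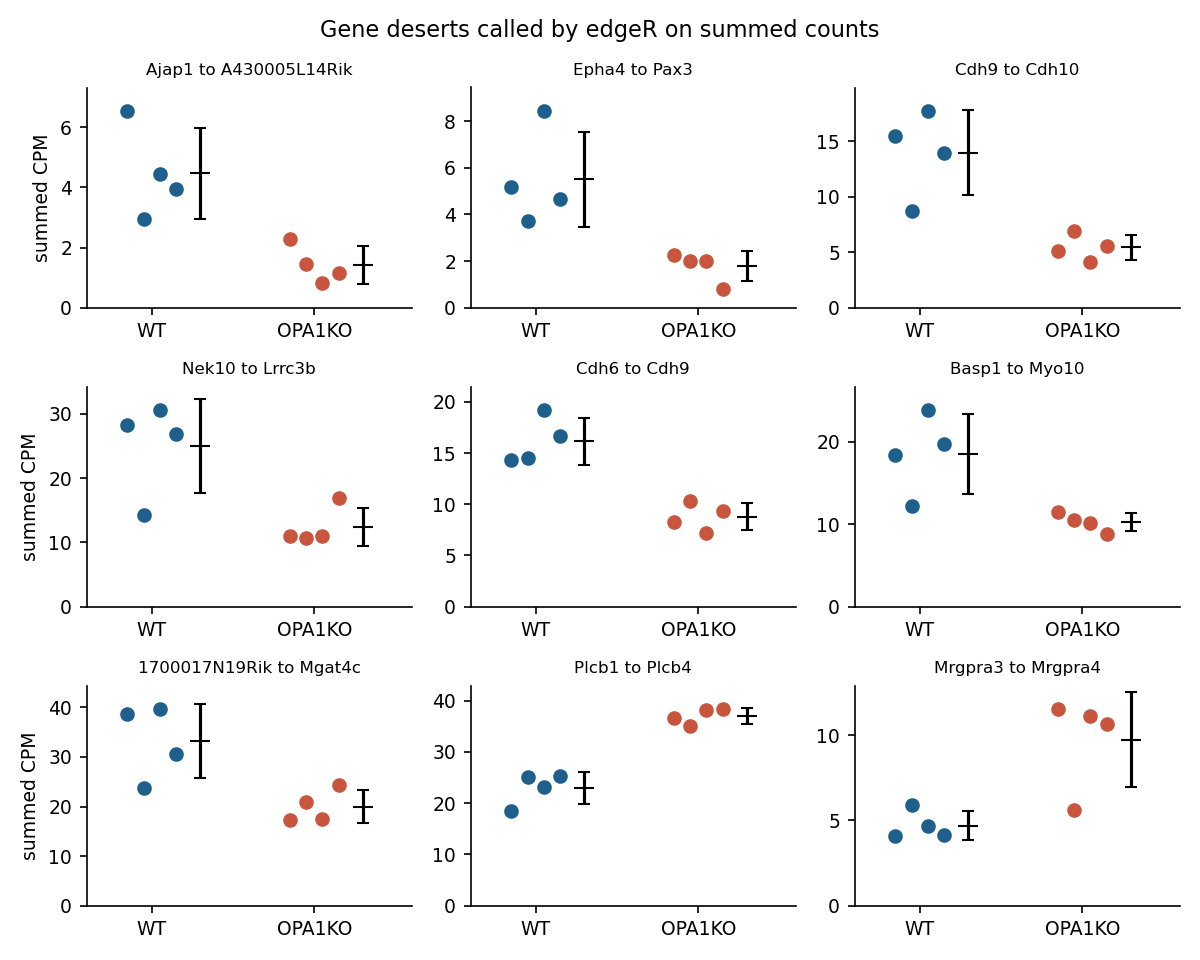
Summed CPM of the gene desert regions in each of the 9 called deserts, named by the coding genes on either side, with 1 point per library and black bars for the mean and SD of 4 libraries; every axis starts at 0. The 7 lower deserts come first, and in the Nek10 to Lrrc3b and the 1700017N19Rik to Mgat4c deserts WT replicate 2 and OPA1KO replicate 4 meet.

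The number of called deserts also changed with the library left out. Without WT replicates 1 to 4 it was 2, 38, 0 and 2, and without OPA1KO replicates 1 to 4 it was 0, 4, 0 and 6. The Cdh9 to Cdh10 desert passed in 5 of these 8 fits (edgeR adjusted p from 2.70e-05 to 0.0725), and the Plcb1 to Plcb4 desert (0.00205 to 0.103) and the Cdh6 to Cdh9 desert (0.00409 to 0.175) in 4 each. The remaining called deserts passed in 1 or 2.

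The 6 deserts with the most regions lay beside genes such as Id2, Zeb2 and Bcl2l11, and none of the 6 passed the test between genotypes. The desert between Id2, whose product is required for cDC1 development, and Rnf144a held 62 regions and summed to 621 ± 28.4 CPM in WT and 633 ± 37.7 CPM in OPA1KO libraries (SD, n = 4 each). The desert between Eea1 and the anti-proliferative gene Btg1 held 48 regions and summed to 753 ± 92.4 and 769 ± 41.3 CPM. That between Nmbr and the transcriptional co-regulator gene Cited2 also held 48, at 331 ± 3.33 and 341 ± 20.1 CPM. That between Zeb2, the gene of a repressor that favours the other dendritic and plasmacytoid fates, and Acvr2a held 43 regions over 3697 kb, at 428 ± 30.9 and 442 ± 10.8 CPM. The densest of these was the desert between Irf2bp2 and Tomm20, with 42 regions at 12.5 per 100 kb, and its sum was 758, 1148, 853 and 942 CPM in the WT libraries and 991, 978, 1032 and 755 CPM in the OPA1KO libraries. The desert between Bcl2l11, which encodes the pro-apoptotic protein BIM, and Spdye4c held 39 regions at 425 ± 78.8 and 450 ± 53.4 CPM. The edgeR adjusted p for these 6 deserts ranged from 0.875 to 0.987.

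Desert regions were then grouped by their nearest coding gene. Of 83 transcription factor genes of blood and dendritic cells, 40 were the nearest gene of 419 desert regions. Of the 411 tested, 209 had positive and 202 negative fold changes, 0 were called, and 25 (6.08%) had an unadjusted p under 0.05. Id2 had 46 of these regions and Zeb2 had 30. The strongest Zeb2 region, chr2:46370772-46371447 at 1253 kb, had 60.1, 88.5, 61.8 and 82.3 CPM in the WT libraries and 96.0, 83.6, 94.5 and 80.2 CPM in the OPA1KO libraries, and its groups overlapped (log2 fold change 0.28 ± 0.11 SE, edgeR adjusted p = 0.689). At chr4:95161029-95161655, inside the non-coding gene Junos and 109 kb from the AP-1 gene Jun, the means were 81.7 ± 4.86 and 76.7 ± 5.55 CPM. At chr17:84119218-84119998, 63.9 kb from the RNA-binding protein gene Zfp36l2, they were 66.1 ± 18.5 and 60.8 ± 7.66 CPM, and at chr1:184617918-184618469, 109 kb from the homeobox gene Hlx, 53.1 ± 11 and 49.7 ± 6.87 CPM (SD, n = 4 each). The groups overlapped at all 4, and none passed (edgeR adjusted p from 0.689 to 0.942).

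Among 56 genes of the dendritic cell surface, antigen presentation and migration, 8 were nearest to 59 desert regions. Of these, 39 had positive and 20 negative fold changes, 0 were called and 3 (5.08%) had an unadjusted p under 0.05. Besides the Cxcr4 region described above, the strongest lay 83.5 kb from Cd24a (42.4 ± 10.7 CPM in WT and 41.0 ± 3.17 CPM in OPA1KO), 61.3 kb from the maturation marker gene Cd83 (39.8 ± 4.24 and 39.8 ± 3.56 CPM), 76.7 kb from the cDC1 adhesion gene Cadm1 (19.8 ± 5.70 and 19.2 ± 3.08 CPM) and 164 kb from the phosphatase gene Ptprc (19.5 ± 3.84 and 17.6 ± 2.80 CPM; SD, n = 4 each). Their groups overlapped. Among 49 cytokine, chemokine and cell death genes, 12 were nearest to 108 desert regions, of which 107 were tested, with 68 positive and 39 negative fold changes, 0 called and 10 (9.35%) with an unadjusted p under 0.05. Their strongest regions, besides that of Dusp4, lay near Btg1 (82.0 ± 9.67 and 82.4 ± 6.23 CPM), Dusp6 (78.3 ± 16.0 and 72.3 ± 4.58 CPM), Bcl2l11 (47.7 ± 6.98 and 51.1 ± 8.76 CPM) and the NF-kappaB inhibitor gene Tnfaip3 (29.5 ± 5.41 and 32.5 ± 3.24 CPM), also with overlapping groups. For all 3 lists the shares with an unadjusted p under 0.05 stand beside 6.38% of all tested regions.

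Irf8 and Il12b were singled out after their values were seen, Irf8 as the gene of the transcription factor that defines cDC1 and Il12b as that of the IL-12 subunit these cells secrete. Irf8 was the nearest coding gene of 3 weak desert regions 63.3 to 71.7 kb away, all with negative fold changes from -1.64 to -0.32. The first of them, chr8:120820025-120820227, had 3.34, 3.74, 5.91 and 2.87 CPM in the WT libraries and 2.13, 0.906, 1.47 and 0.328 CPM in the OPA1KO libraries, without overlap, and did not pass (edgeR adjusted p = 0.319). The strongest region within 1 kb of either end of the Irf8 gene itself had means of 35.1 CPM in WT and 38.5 CPM in OPA1KO libraries. Il12b was nearest to 6 desert regions 51.4 to 225 kb away, all with positive fold changes from 0.11 to 0.32, and none passed (edgeR adjusted p from 0.885 to 0.980).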

How the data were processed

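Each library was 1 ATAC-seq sample of sorted splenic cDC1. The deposited values are counts per region and library, whole numbers without normalization. The submitters' processing notes name MACS2 2.1.0.20150603, bedtools, SAMtools, Picard 1.65 and cutadapt 1.9, with the builds mm10 and GRCm38. The aligner, the tools' settings, how the shared regions were built, whether read ends were shifted and whether regions were blacklisted are not given in the sources used here. Coordinates are printed as in the table, and whether its starts count from 0 or 1 is not given there.

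Regions were classed with RefSeq gene models of GRCm38.p6. CPM was computed from the counts with TMM factors (0.947 to 1.03). The test was edgeR 4.0.16 in R 4.3.3 (filterByExpr, TMM, robust glmQLFit, glmQLFTest) over the whole table without covariates, with Benjamini-Hochberg adjustment at 0.05. Deserts were fitted on summed counts with the same library sizes and factors, adjusted over the 1195 tested. The SD of log2 CPM used a pseudocount of 1. Single values per library were compared by exact permutation, two-sided, with 70 possible assignments of the libraries and a smallest possible p of 0.0286. DESeq2 1.42.0, limma-voom (limma 3.58.1), other scalings, filters and distances, a replicate block and leaving out each library were alternatives. The fits were tested on simulated data.

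The gene desert rule, flanking gene lists and marker lists were chosen with earlier results of these data known. Named regions were those called, the 12 of highest level, the 6 widest, the 4 of smallest p in each direction, the 5 farthest from a gene, the 3 on either side of 50 kb, the 4 of largest and of smallest spread, up to 5 per flanking list, and deserts called or among the 6 with most regions; not each is printed. Start windows, microRNA neighbours and the split by level were added after seeing the data. Sequences of the regions themselves, which need a genome, were not analysed here.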

Additional observations from a re-analysis of the deposited data

Results flagged for a closer look

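In 6 of 158 groups of 4 libraries examined, 1 library lay far from the other 3 by Dixon's criterion, where chance alone flags about 1 in 20 groups, or 7.9 here. OPA1KO replicate 4 was the library in 3 of them. It had 15.7 CPM at chr4:82142451-82142746, 147 kb from the transcription factor gene Nfib, where the other OPA1KO libraries had 3.44 to 4.55 CPM. In the desert between Nek10 and Lrrc3b it had 16.9 CPM, against 10.7 to 11 CPM in the others, and in the desert between Eea1 and Btg1 708 CPM, against 783 to 795 CPM. OPA1KO replicate 2 had 5.62 CPM in the desert between Mrgpra3 and Mrgpra4, against 10.7 to 11.5 CPM. WT replicate 3 had 7.59 CPM at the called region near Nubpl, against 8.41 to 8.51 CPM in the other WT libraries, and WT replicate 4 had 4.30 CPM at the region 49.996 kb from Cxcr4, against 2.80 to 2.95 CPM.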

How the results depend on the processing

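The median width and the lower level of gene desert regions against other regions between genes kept their side under the alternatives run, and the median log2 fold change lay between 0.0018 and 0.04, except over 50 kb from every gene model, where it was -0.0080. The number of called desert regions was 3, all lower, with DESeq2 size factors, without a filter and with a CPM filter. It was 2 with total counts alone, where the Cdh9 region did not pass, 8, all lower, with DESeq2, 1, lower, with limma-voom, and 1, lower, for regions over 100 kb from coding genes (3131 regions) or over 50 kb from every gene model (1118 regions). Leaving out each library gave 0 to 15 called regions, 0 to 1 higher and 0 to 14 lower. Called deserts numbered 9 (2 higher, 7 lower), but 19 with DESeq2 (17 lower), and 0 to 38 without each library in turn, 0 to 3 higher and 0 to 35 lower. Same-numbered WT and OPA1KO libraries deviated with correlations from -0.143 to -0.0073, so no shared deviation was seen. The labels do not say whether the numbers pair the libraries. These correlations cannot decide it, since a pairing need leave no shared deviation. With the replicate block, 0 regions (0 lower) and 18 deserts (16 lower) were called. The difference in the share of counts, 0.0612 percentage points, was -0.00266 for regions over 50 kb from every gene model (exact permutation p = 0.914). The difference in the summed level of the 92 strongest regions, OPA1KO minus WT -89.7 CPM, ran from -389 to 274 CPM without each library, being 274, 3.73 and 149 CPM without WT replicates 2 and 4 and OPA1KO replicate 4; those fits were added after seeing the data. The causes were not tested. The median desert region held 25 to 36 counts in a library.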
